A study of Mus musculus with 10 samples.

Results

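Prox1 and 8 other transcription factors that set hepatocyte identity, Hnf4a, Foxa1, Foxa2, Foxa3, Onecut1, Cebpa, Cebpb and Nr5a2, were followed in mouse liver after phenobarbital. The 9 genes were found by symbol in the platform annotation, which assigned 19 of the 45101 probe sets to them and to no other gene, out of 18193 genes with a symbol. The set was chosen from the levels of phenobarbital against control livers on these same arrays. The differences of these 9 genes between the groups are therefore given as a description. Whether these genes passed in a fit over all genes is stated further on. Such calls rest on the values that chose the set and are no independent test of it.

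Livers came from 10 male B6C3F1/Crl mice, the hybrid offspring of a C57BL/6 male and a C3H/He female, received at 29 to 32 days of age and given 5 days to settle. For 28 days, 5 of them had phenobarbital at 0.05% (w/v) in their drinking water, while 5 served as controls. Phenobarbital is a barbiturate that induces drug-metabolising enzymes and is a non-genotoxic promoter of liver tumours in mice. RNA of each animal's whole liver was hybridised to an Affymetrix array of its own, and levels are given on the log2 scale per probe set, as deposited. Whole liver holds several cell types, so that fewer cells of a type and less RNA per cell cannot be told apart.

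Hepatocyte identity is held by a network of factors that bind one another's genes and the same enhancers. FOXA proteins are forkhead factors that open chromatin, HNF4A is a nuclear receptor needed for most hepatocyte genes, and ONECUT1, also called HNF6, is a cut-homeobox factor that can activate Foxa2 and Hnf4a. CEBPA and CEBPB are bZIP factors of metabolic and acute phase genes. NR5A2, also called LRH-1, is a nuclear receptor of bile acid and cholesterol genes, and PROX1 is a homeobox protein that binds NR5A2 and HNF4A and represses their activity, among others on the bile acid synthesis gene Cyp7a1.

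The windows before the start sites of 6 of the genes are shown, because these genes carried the differences between groups or between animals described further on. Each runs from 250 bases before to 50 bases after the most upstream start that RefSeq lists (GRCm38.p6). Capitals mark matches, on either strand, to short core motifs: ATTGAT for ONECUT factors, TGTTTAC for FOXA, TTGCNNAA for C/EBP, CAAAGTCCA for HNF4A and CAAGGTCA for NR5A2.
Prox1, chr1:190170778-190171077, minus strand: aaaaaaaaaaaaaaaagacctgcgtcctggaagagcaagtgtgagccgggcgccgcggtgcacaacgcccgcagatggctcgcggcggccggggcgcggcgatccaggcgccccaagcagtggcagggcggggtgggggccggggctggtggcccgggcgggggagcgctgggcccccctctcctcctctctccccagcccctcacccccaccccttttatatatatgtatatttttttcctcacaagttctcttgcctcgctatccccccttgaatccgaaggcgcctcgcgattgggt
Nr5a2, chr1:136960399-136960698, minus strand: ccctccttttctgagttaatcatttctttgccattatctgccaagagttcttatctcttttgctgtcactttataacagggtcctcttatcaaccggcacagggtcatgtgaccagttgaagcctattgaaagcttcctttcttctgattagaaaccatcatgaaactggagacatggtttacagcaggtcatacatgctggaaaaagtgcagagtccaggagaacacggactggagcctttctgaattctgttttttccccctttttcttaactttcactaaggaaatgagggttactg
Hnf4a, chr2:163506607-163506906, plus strand: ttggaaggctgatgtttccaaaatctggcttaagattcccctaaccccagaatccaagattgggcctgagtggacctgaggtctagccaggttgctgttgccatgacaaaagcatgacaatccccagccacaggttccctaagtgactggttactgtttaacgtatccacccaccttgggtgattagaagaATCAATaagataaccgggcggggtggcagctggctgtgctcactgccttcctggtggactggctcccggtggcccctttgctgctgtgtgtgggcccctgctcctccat
Onecut1, chr9:74861671-74861970, plus strand: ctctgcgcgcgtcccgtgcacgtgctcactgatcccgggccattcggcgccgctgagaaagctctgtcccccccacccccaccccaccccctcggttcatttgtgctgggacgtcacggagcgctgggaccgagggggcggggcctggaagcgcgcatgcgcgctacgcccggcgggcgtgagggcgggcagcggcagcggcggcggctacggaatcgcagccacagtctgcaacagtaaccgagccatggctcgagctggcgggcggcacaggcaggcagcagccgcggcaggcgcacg
Foxa1, chr12:57546062-57546361, minus strand: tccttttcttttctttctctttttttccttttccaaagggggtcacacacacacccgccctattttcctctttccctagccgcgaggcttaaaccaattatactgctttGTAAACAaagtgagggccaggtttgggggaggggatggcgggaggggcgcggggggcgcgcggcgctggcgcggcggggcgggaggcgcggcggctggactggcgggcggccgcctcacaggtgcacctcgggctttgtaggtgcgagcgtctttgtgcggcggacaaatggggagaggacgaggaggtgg
Foxa2, chr2:148046920-148047219, minus strand: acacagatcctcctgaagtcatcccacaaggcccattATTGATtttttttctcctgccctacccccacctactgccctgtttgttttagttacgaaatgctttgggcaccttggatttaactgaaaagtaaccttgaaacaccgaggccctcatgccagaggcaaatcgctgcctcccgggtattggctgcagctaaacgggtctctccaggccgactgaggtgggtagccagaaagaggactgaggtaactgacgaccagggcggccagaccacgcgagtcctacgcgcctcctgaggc
The ONECUT core stood in the Foxa2 window, beginning at position -213 from the start, and in the Hnf4a window at position -59, in reverse orientation. The windows of the further starts of Hnf4a and Foxa2, not shown, held no match to any of the motifs. The FOXA core stood in the Foxa1 window at position -141, also in reverse. The C/EBP core was found once among all 14 windows of the 9 genes, in the other Nr5a2 window, and the HNF4A and NR5A2 cores in none of them. Over 32851 windows of the same length, 7.54% held the ONECUT core, 3.65% the FOXA core, 10.8% the C/EBP core, 0.475% the HNF4A core and 1.56% the NR5A2 core. The matches describe letters only, and which start was used in these livers was not measured.

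Array quality moved with the groups. Poly-A spike-ins, bacterial RNAs put in before labelling and read by 24 probe sets, averaged 5.76 to 6.58 on phenobarbital arrays, against 7.77 to 8.64 on control replicates 1, 2, 3 and 5 and 6.40 on control replicate 4 (exact two-sided permutation p = 0.0238, Benjamini-Hochberg 0.0317 over 4 array measures). The 3' minus 5' difference of Gapdh was -0.28 to -0.21 on phenobarbital arrays and -0.15 to -0.03 on control arrays (exact two-sided permutation p = 0.00794, the smallest that 5 against 5 allows, Benjamini-Hochberg 0.0317). There control replicate 4, at -0.15, lay outside the range of the treated arrays. It lay within that range on the 3' minus 5' difference of Actb (1.28, against 1.19 to 1.33) and on the hybridisation spike-ins (10.65, against 10.54 to 10.74). A fit with the 2 spike-in sets as a block, 6 low arrays and 4 high ones, therefore compares the phenobarbital animals with control replicate 4 alone, and its values are given beside the others. The part of array quality in the results was not tested. Hepatocyte markers such as Alb and Ttr were near the top of the scale in both groups, with Alb at 14.96 ± 0.01 in phenobarbital livers and 14.98 ± 0.02 in control livers (SD, n = 5 each).

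Prox1 had the largest difference of the 9 genes, a level about 3.26-fold lower in phenobarbital livers. On its brightest probe set, 1437894_at, phenobarbital animals 1 to 5 had log2 levels of 6.39, 6.95, 6.73, 6.65 and 7.01, against 8.69, 8.29, 9.21, 7.14 and 8.92 in controls 1 to 5. The groups did not overlap, and control replicate 4 lay far below the other controls and close to the treated animals. The log2 fold change was -1.70 ± 0.30 (SE). It was -2.03 without control replicate 4 and -0.39 ± 0.28 (SE) with the spike-in set as a block. The call at an adjusted p of 0.05 in the fit over all genes was lost in that fit and with the spike-in mean as a covariate.

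The other probe sets of Prox1 did not all show this difference. Probe set 1457432_at read 5.84, 5.37, 5.43, 5.66 and 5.51 in phenobarbital animals, against 6.81, 6.07, 6.91, 5.55 and 6.90 in controls. Its log2 fold change was -0.89 ± 0.23 (SE), and control replicate 4 lay inside the range of the treated animals, so that the block value was 0.01 ± 0.27 (SE). Probe set 1421336_at gave 5.59, 5.77, 5.64, 6.04 and 5.68 in phenobarbital animals and 5.75, 5.34, 5.66, 5.78 and 5.78 in controls, with overlapping groups and a log2 fold change of 0.08 ± 0.11 (SE). After each group's mean was subtracted, the first pair of probe sets followed each other over the 10 animals (Pearson r = 0.80), while the third followed neither (r = -0.01 and 0.15).

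**Figure D1:**
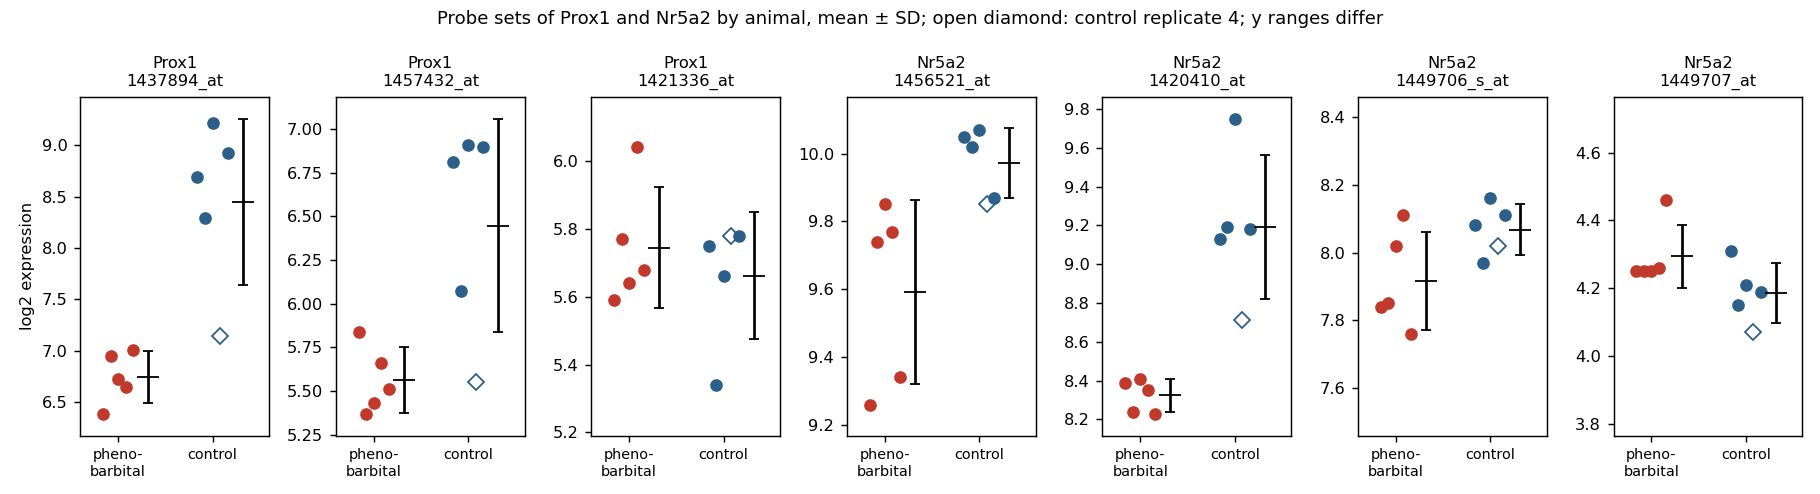
Log2 expression of the 3 probe sets of Prox1 and the 4 of Nr5a2, 1 point per animal, phenobarbital left and control right, with the mean and SD as bars (n = 5 each) and control replicate 4 as an open diamond. Prox1 1437894_at and Nr5a2 1420410_at are lower in all 5 phenobarbital animals than in any control, and the open diamond is the control nearest to them.

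Nr5a2 was also lower in phenobarbital livers, by an amount that depended on the probe set. On the brightest, 1456521_at, phenobarbital animals had log2 levels of 9.26, 9.74, 9.85, 9.77 and 9.34, against 10.05, 10.02, 10.07, 9.85 and 9.87 in controls. The groups met at 9.85, the level of phenobarbital replicate 3 and of control replicate 4, and phenobarbital replicates 1 and 5 were the lowest. The log2 fold change was -0.38 ± 0.11 (SE), or -0.26 ± 0.20 (SE) with the spike-in block. Its call in the fit over all genes was lost in 8 of 20 alternative settings, among them the omission of phenobarbital replicate 1 (where the value came to -0.30), phenobarbital replicate 5, or control replicate 1, 2 or 3.

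A second Nr5a2 probe set, 1420410_at, separated the groups. It read 8.39, 8.24, 8.41, 8.35 and 8.23 in phenobarbital animals, against 9.13, 9.19, 9.75, 8.71 and 9.18 in controls, with control replicate 4 again the lowest control. Treated animals spanned 0.18 on the log2 scale and controls 1.04. The log2 fold change was -0.87 ± 0.14 (SE), and -0.39 ± 0.19 (SE) with the spike-in block. Probe set 1449706_s_at had overlapping groups and a log2 fold change of -0.15 ± 0.08 (SE). Probe set 1449707_at lay at 4.07 to 4.46 on all arrays, near the lower quartile of the arrays (4.13 to 4.2), and is close to background.

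Hnf4a differed little between the groups on its brightest probe set and was higher in phenobarbital livers on a dimmer one. Probe set 1427001_s_at read 12.74, 12.60, 12.63, 12.63 and 12.82 in phenobarbital animals and 12.59, 12.57, 12.53, 12.71 and 12.56 in controls. The groups overlapped through control replicate 4, and the log2 fold change was 0.09 ± 0.07 (SE). The dimmer 1421983_s_at gave 9.92, 9.56, 9.60, 9.71 and 10 in phenobarbital animals, against 9.32, 9.24, 8.96, 9.84 and 9.11 in controls. There all treated animals were above the 4 controls other than replicate 4, which lay among them, and the log2 fold change of 0.46 ± 0.15 (SE) became -0.08 ± 0.18 (SE) with the spike-in block. The remaining probe sets, 1427000_at and 1450447_at, had overlapping groups and log2 fold changes of 0.31 ± 0.15 and 0.13 ± 0.11 (SE).

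Onecut1 varied widely between animals, with a larger SD among phenobarbital animals (1.398) than any of the other 8 genes on their brightest probe sets, and an SD of 0.74 among controls, where that of Prox1 was 0.81. Probe set 1450252_at read 10.21, 7.11, 8.08, 7.31 and 9.67 in phenobarbital animals, against 7.35, 7.03, 7.42, 8.92 and 7.92 in controls. Phenobarbital replicates 1 and 5 and control replicate 4 were high, and the others lay between 7.03 and 8.08. The levels spanned 3.10 on the log2 scale among treated animals and 1.89 among controls. The second probe set, 1421447_at, placed the animals alike (r = 0.99 after group means were subtracted), with 9.30, 5.74, 6.93, 6.09 and 8.86 in phenobarbital animals and 6.18, 5.59, 5.76, 8 and 6.27 in controls. The groups overlapped on both, with log2 fold changes of 0.75 ± 0.56 and 1.02 ± 0.67 (SE).

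Foxa1 and Foxa2 did not differ between the groups beyond their spread, yet differed between animals. Foxa1 (1418496_at) read 10.56, 9.11, 10, 9.20 and 9.40 in phenobarbital animals and 9.42, 9.25, 9.33, 10.58 and 9.43 in controls. Foxa2 (1422833_at) read 10.44, 9.11, 10.08, 9.19 and 9.69 in phenobarbital animals and 9.41, 9.50, 9.52, 10.37 and 9.60 in controls. In both genes phenobarbital replicates 1 and 3 and control replicate 4 were the 3 highest animals and phenobarbital replicates 2 and 4 the lowest. The log2 fold changes were 0.05 ± 0.29 for Foxa1 and 0.02 ± 0.25 for Foxa2 (SE). With the spike-in block they turned to -0.93 ± 0.40 and -0.67 ± 0.37 (SE), since control replicate 4 is then the only control compared.

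Foxa3, the third forkhead factor of the liver, had a narrower range. Its probe set 1431900_a_at gave 9.71, 9.52, 9.42, 9.39 and 10.01 in phenobarbital animals, against 9.68, 9.59, 9.70, 10.02 and 9.66 in controls. Phenobarbital replicate 5 and control replicate 4 were high, the groups overlapped, and the log2 fold change was -0.12 ± 0.12 (SE).

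**Figure D2:**
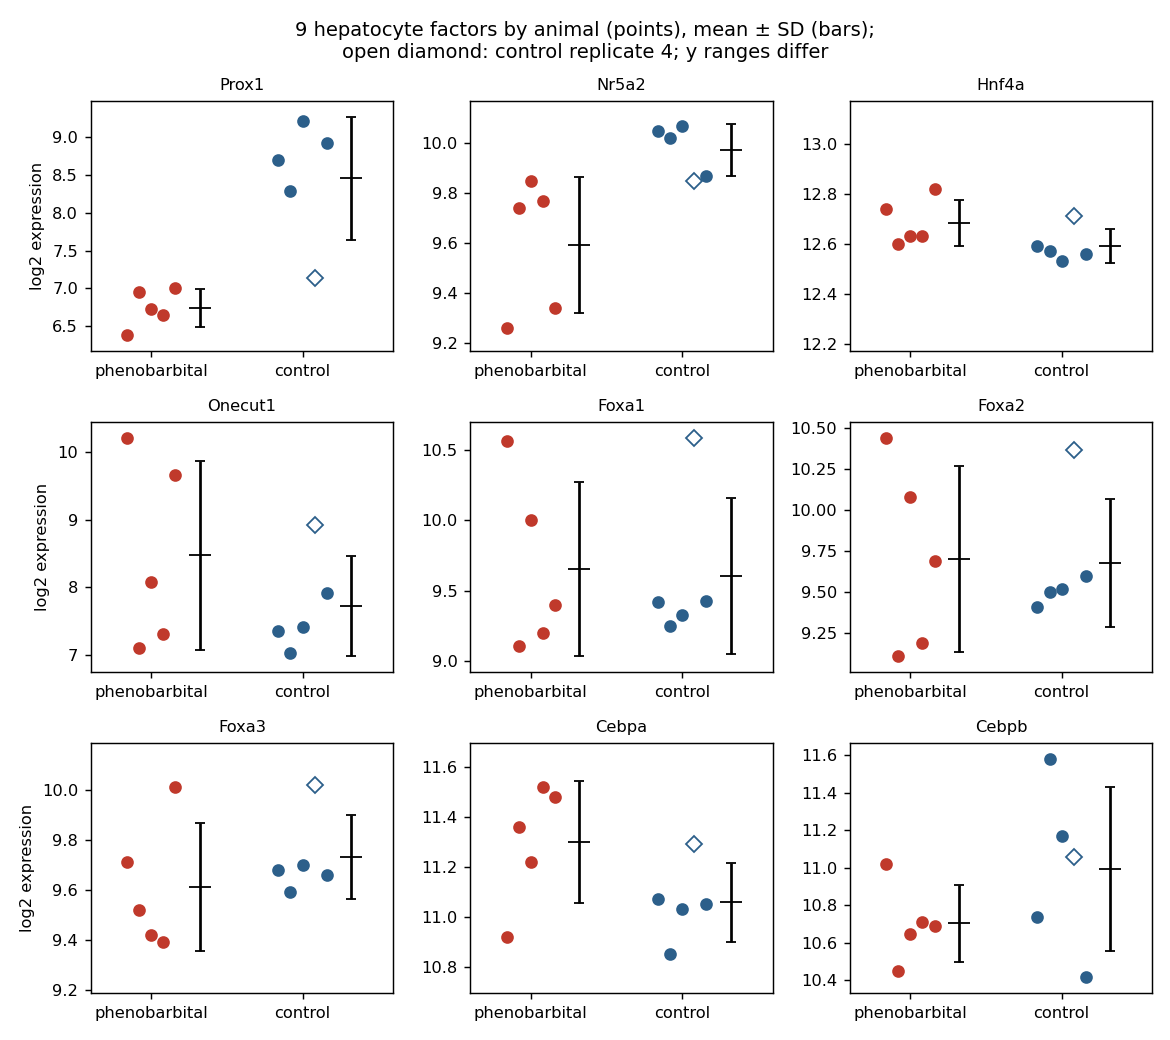
Log2 expression of the 9 genes on their brightest probe sets, 1 point per animal, phenobarbital left and control right, with the mean and SD as bars (n = 5 each) and control replicate 4 as an open diamond. Prox1 is the gene whose groups do not overlap, and Onecut1, Foxa1 and Foxa2 spread widely within both groups.

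The differences between animals of a group ran together in several of these genes. After each group's mean was subtracted, Foxa1 and Foxa2 followed each other over the 10 animals with Pearson r = 0.96 and Spearman rho = 0.89 (exact permutation within groups, two-sided p = 0.00125 and 0.00375). Over all 36 pairs of the 9 genes, computed after the values had been seen, the Benjamini-Hochberg values were 0.045 for Pearson and 0.135 for Spearman. Foxa1 and Foxa2 were the one pair below 0.05 by Pearson, and no pair was by Spearman. The Pearson r was 0.97 among phenobarbital animals and 0.98 among controls, and 0.92 without the 2 animals farthest from the Foxa1 median, control replicate 4 and phenobarbital replicate 1. It lay between 0.94 and 0.98 in 15 other settings, of which 5 kept an adjusted p under 0.05; the call was lost without any one of phenobarbital replicates 1, 2, 4 and 5 or control replicates 2, 3, 4 and 5. It was 0.96 with the spike-in set as a block, where the adjusted p was 0.225. Of 9094 genes with a mean above the median of all genes, Foxa1 had the highest r with Foxa2, and Foxa2 had the highest r with Foxa1.

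Onecut1 ran with the forkhead genes and against Nr5a2, without passing the correction over the 36 pairs (Benjamini-Hochberg 0.0995 for each pair by exact permutation of Pearson r). Its r was 0.82 with Foxa2, 0.75 with Foxa1, 0.81 with Foxa3 and 0.86 with Hnf4a (Spearman rho 0.83, 0.75, 0.84 and 0.75; Benjamini-Hochberg 0.189 each). Without phenobarbital replicates 1 and 5, the 2 animals farthest from the Onecut1 median, the r with Foxa2 was 0.91 and that with Foxa1 0.95. With Nr5a2 the r was -0.90 (rho -0.84), and -0.55 without those 2 animals, so that this relation rests largely on them. Hnf4a and Foxa3 had r = 0.92 (rho 0.68), and 0.67 without control replicate 4 and phenobarbital replicate 5. Prox1 and Nr5a2, the pair lower in phenobarbital livers, had r = 0.26 on their brightest probe sets, with a Benjamini-Hochberg value of 0.426 by exact permutation. This r does not cover Nr5a2 probe set 1420410_at, which was not correlated with Prox1 singly. There control replicate 3 was the highest control (9.75) and control replicate 4 the lowest (8.71), as on Prox1 1437894_at (9.21 and 7.14).

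**Figure D3:**
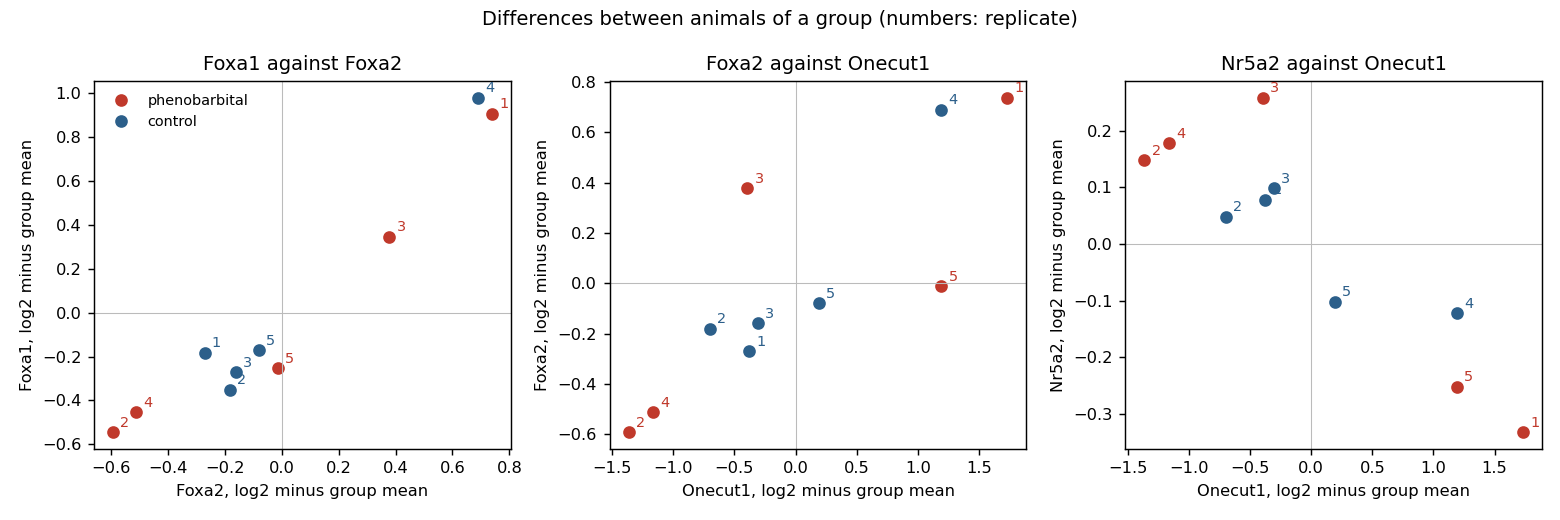
Deviations of each animal from its group's mean, on the log2 scale, for Foxa1 against Foxa2, Foxa2 against Onecut1 and Nr5a2 against Onecut1, with phenobarbital in red, control in blue and the replicate number beside each of the 10 points. Foxa1 and Foxa2 lie along a line (r = 0.96), with phenobarbital replicate 1 and control replicate 4 at its upper end.

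Of the bZIP factors, Cebpa and Cebpb had overlapping groups, and Cebpb was uneven among controls. Cebpa (1418982_at) read 10.92, 11.36, 11.22, 11.52 and 11.48 in phenobarbital animals, against 11.07, 10.85, 11.03, 11.29 and 11.05 in controls. The groups overlapped through phenobarbital replicate 1 and control replicate 4. The log2 fold change was 0.24 ± 0.11 (SE), 0.34 without phenobarbital replicate 1, where the gene was called, and 0.01 ± 0.19 (SE) with the spike-in block. Cebpb (1418901_at) read 11.02, 10.45, 10.65, 10.71 and 10.69 in phenobarbital animals, against 10.74, 11.58, 11.17, 11.06 and 10.42 in controls. All treated animals lay within the controls' range, which control replicates 2 and 5 bounded, and the log2 fold change was -0.29 ± 0.18 (SE). Its second probe set, 1427844_a_at, gave -0.07 ± 0.20 (SE) and placed the animals alike (r = 0.92 after group means were subtracted).

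In the fit over all 18193 genes with limma, 2 of the 9 genes passed an adjusted p of 0.05, both lower, Prox1 and Nr5a2. Of all genes 20.3% passed, 9.02% higher and 11.3% lower, and the count of members is near that share. Because the members were chosen from these same levels, their calls and the shares beside them are a description and no test of the set. The groups did not overlap in 1 of the 9 genes, Prox1, against 12.9% of all genes in either direction and 7.21% with phenobarbital lower. Singly, 5 of the 19 probe sets passed, against 18.7% of all probe sets. They were 1437894_at and 1457432_at of Prox1 and 1456521_at and 1420410_at of Nr5a2, all lower, and 1421983_s_at of Hnf4a, higher. With the spike-in block 0 of the 9 passed, against 0.786% of all genes. The median log2 fold change of the 9 genes was 0.02, and that of all genes 0.008.

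**Figure D4:**
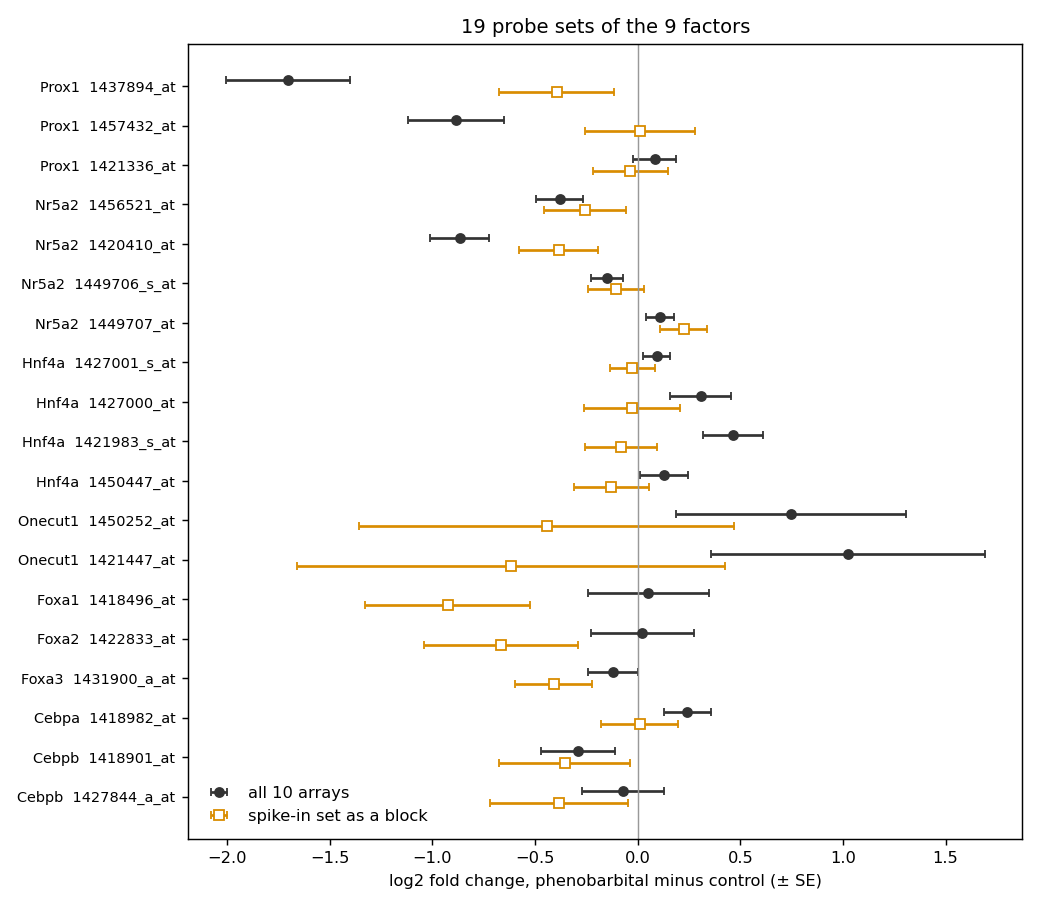
Log2 fold change, phenobarbital minus control, of the 19 probe sets of the 9 genes, with the SE as bars, over all 10 arrays (filled circles) and with the spike-in set as a block (open squares). Prox1 1437894_at stands at -1.70 without the block and -0.39 with it, and Foxa1 moves to -0.93 with it.

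Other liver transcription factors fell more often than they rose. Of 35 measured, 9 fell, 2 rose (Mlxipl and Gata4) and 24 did not pass, with a median log2 fold change of -0.09. Of all genes, 11.3% passed lower and 9.02% higher, and these shares also stand beside the counts of the lists below. Nr2f1, among the 9 that fell, lay below the lower quartile of every array. Ppara, the fasting-activated nuclear receptor of fatty acid oxidation, had a log2 level of 9.56 ± 0.18 in phenobarbital livers and 10.43 ± 0.25 in control livers (SD, n = 5 each), a difference of -0.87 ± 0.12 on the log2 scale (SE, limma adjusted p = 0.00075). Nfib, a nuclear factor I gene, fell by 0.62 on the log2 scale (limma adjusted p = 0.00143), the forkhead gene Foxp1 by 0.62 (limma adjusted p = 0.00745) and Foxo1, the insulin-restrained forkhead factor of gluconeogenesis, by 0.47 (limma adjusted p = 0.011). Ppara, Nfib, Foxp1 and Foxo1 were lower in every phenobarbital animal than in any control. Their values with the spike-in block were -0.52, -0.48, -0.29 and -0.44, and none of the 35 passed there. Foxo1 also lost its call when its probe sets were averaged and on its brightest probe set without an _s_at or _x_at suffix.

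Among 19 measured relatives of the 9 genes by family, 2 rose, 2 fell and 15 did not pass (median log2 fold change -0.05). Foxo3, a forkhead factor regulated like Foxo1, was 8.398 ± 0.18 in phenobarbital livers and 8.91 ± 0.14 in control livers (SD, n = 5 each), with a log2 fold change of -0.51 ± 0.09 (SE, adjusted p by limma = 0.00358), lost when its probe sets were averaged. Cebpd, the acute phase relative of Cebpb, had a log2 fold change of -0.48 ± 0.14 (SE, adjusted p by limma = 0.0268), lost in 8 of 20 settings. Foxk2 rose by 0.41 ± 0.10 (SE, limma adjusted p = 0.0161), and Foxc1 by 0.34 ± 0.10 (SE, limma adjusted p = 0.0335) at a level of 4.04 in phenobarbital livers and 3.71 in control livers, close to background, where the call was lost in 10 of 19 settings. The log2 fold changes of Onecut2 and Cebpg were -0.19 ± 0.08 and -0.12 ± 0.07 (SE), neither passing limma (adjusted p = 0.111 and 0.212). Cebpg passed when its probe sets were averaged (limma adjusted p = 0.0209). Hnf4g, the second HNF4 gene, lay below the lower quartile of every array, at 3.69 ± 0.08 in phenobarbital livers and 3.72 ± 0.18 in control livers (SD, n = 5 each), and it passed, higher in phenobarbital livers, when its probe sets were averaged (limma adjusted p = 0.0278). With the spike-in block none of the 19 passed.

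Cofactors that these 9 factors are known to bind moved downward in every case that passed in the fit over all genes. With quantile normalisation, with array weights or without control replicate 4, 1 cofactor passed as higher, beside 6, 9 and 10 lower. Of 23 measured, 9 fell, none rose and 14 did not pass, with a median log2 fold change of -0.16. The shares of all genes were 11.3% lower and 9.02% higher. Ppargc1a, the fasting-induced coactivator of HNF4A, had log2 levels of 6.85 ± 0.34 in phenobarbital livers and 8.27 ± 0.45 in control livers (SD, n = 5 each), and all treated animals were below all controls. Its log2 fold change was -1.42 ± 0.20 (SE, limma adjusted p = 0.000959), with all 5 of its probe sets called, and -0.92 with the spike-in block (limma adjusted p = 0.24). Its relative Ppargc1b had a log2 fold change of -0.87 ± 0.17 (SE, adjusted p by limma = 0.00529) and the deacetylase Sirt1 of -0.85 ± 0.14 (SE, limma adjusted p = 0.0019), both without overlap between groups. Their block values were -0.81 and -0.52. The mediator subunit Med14 fell by 0.45 on the log2 scale (limma adjusted p = 0.0184), a call lost when its probe sets were averaged, and its block value was -0.02. Nr0b2, the corepressor SHP that restrains NR5A2 and HNF4A, was spread over 8.17 to 10.50 in phenobarbital livers and 9.13 to 10.57 in control livers, with a log2 fold change of -0.25 ± 0.41 (SE, adjusted p by limma = 0.705). None of the 23 passed with the spike-in block.

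**Figure D5:**
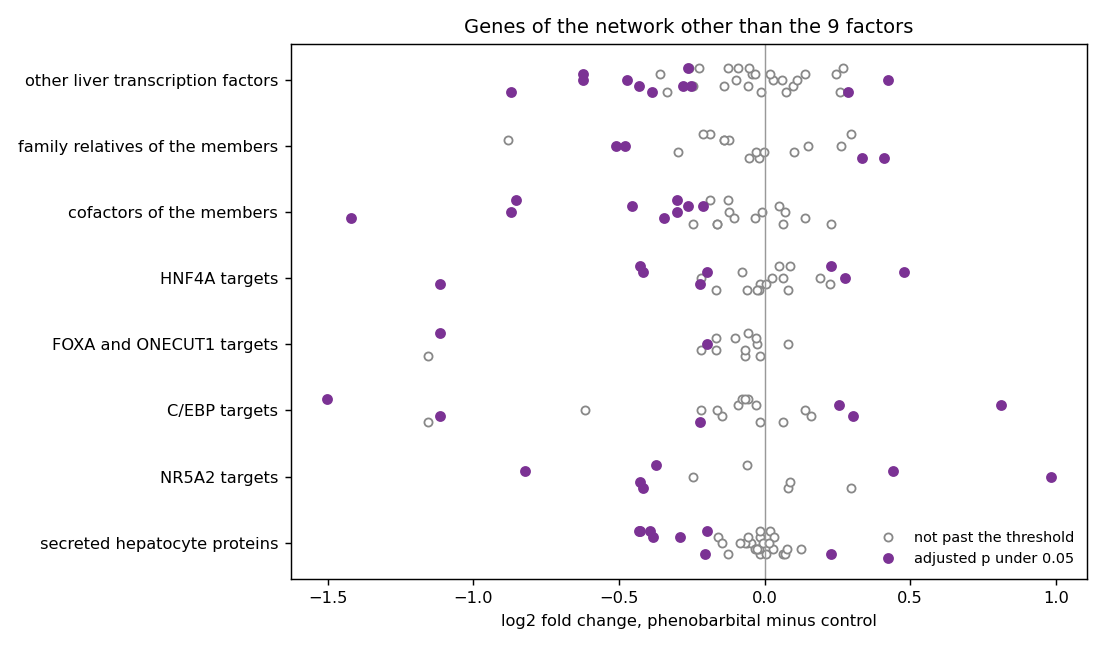
Log2 fold change, phenobarbital minus control, of measured genes in 8 lists around the 9 factors, filled where limma's adjusted p was under 0.05 and open where it was not. Ppargc1a stands lowest among the cofactors at -1.42, and none of the filled cofactors lies to the right of 0.

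Textbook targets of HNF4A moved both ways. Of 23 measured, 3 rose, 5 fell and 15 did not pass (median log2 fold change -0.02). Pck1, the rate-limiting enzyme of gluconeogenesis, which FOXA and C/EBP factors also bind, was 11.69 ± 0.47 in phenobarbital livers and 12.80 ± 0.44 in control livers (SD, n = 5 each), a log2 fold change of -1.11 ± 0.23 (SE, adjusted p by limma = 0.00635). Pyruvate kinase gene Pklr rose by 0.48 ± 0.13 (SE, limma adjusted p = 0.0242), with no overlap between groups, and lost its call without phenobarbital replicate 2, 3 or 4. Abcg5 and Abcg8, which encode the sterol efflux pump of hepatocytes and are also targets of NR5A2, had log2 fold changes of -0.42 ± 0.08 and -0.43 ± 0.10 (SE, limma adjusted p = 0.00357 and 0.00952). The block values of Pck1, Pklr, Abcg5 and Abcg8 were -0.92, 0.35, -0.19 and -0.11, and none of the 23 passed there.

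Targets of NR5A2 held 4 falls and 2 rises among 11 measured, with a median log2 fold change of -0.06. Scarb1, the HDL receptor, had log2 levels of 9.83 ± 0.08 in phenobarbital livers and 10.65 ± 0.18 in control livers (SD, n = 5 each), with no overlap and a log2 fold change of -0.82 ± 0.09 (SE, adjusted p by limma = 8.85e-05). Its block value was -0.50 (limma adjusted p = 0.0526), and its call was also lost on a probe set without an _s_at or _x_at suffix. Fatty acid synthase gene Fasn rose by 0.98 ± 0.26 (SE, limma adjusted p = 0.0199), a call lost without phenobarbital replicate 2 and with trend and robust variance, and the lipase gene Cel rose by 0.44 ± 0.10 (SE, limma adjusted p = 0.00985). Cyp7a1 and Cyp8b1, the bile acid synthesis genes on which NR5A2, HNF4A and PROX1 are known to act, had log2 fold changes of 0.08 ± 0.23 and 0.09 ± 0.14 (SE), with limma adjusted p of 0.831 and 0.704. Cyp7a1 was 9.70 ± 0.47 in phenobarbital livers and 9.62 ± 0.42 in control livers, and Cyp8b1 12.09 ± 0.36 in phenobarbital livers and 12.002 ± 0.13 in control livers (SD, n = 5 each).

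Among 14 measured targets of FOXA and ONECUT1, Pck1 and the apolipoprotein gene Apob fell, none rose and 12 did not pass (median log2 fold change -0.08). Apob had a log2 fold change of -0.20 ± 0.06 (SE, adjusted p by limma = 0.039), a call lost in 11 of 20 settings. Of 20 measured C/EBP targets, 3 rose and 3 fell, with a median of -0.07. Lcn2, an iron-binding acute phase protein, rose by 0.81 ± 0.15 and Orm1, an orosomucoid, by 0.30 ± 0.07 (SE, limma adjusted p = 0.0033 and 0.0109), neither overlapping between groups. Ass1, a urea cycle enzyme, read 6.55 to 7.14 in phenobarbital livers, against 8.21 to 9.92 in controls 1, 2, 3 and 5 and 6.82 in control replicate 4. Its log2 fold change of -1.50 ± 0.40 (SE, adjusted p by limma = 0.0199) became 0.04 with the spike-in block, and the call was also lost with trend and robust variance. Ass1 was read by 1 probe set, far below the urea cycle genes Cps1, Otc and Arg1 (14.13, 13.198 and 13.73 in phenobarbital livers). Which Ass1 transcript that probe set reads was not measured.

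Of 33 measured genes of secreted hepatocyte proteins, 7 fell, 1 rose and 25 did not pass (median log2 fold change -0.03). The mean level of the 33 was 13.66 to 13.70 in phenobarbital livers and 13.73 to 13.82 in control livers, without overlap, near the top of the scale. Complement component gene C9, coagulation factor gene F5 and the inter-alpha-trypsin inhibitor genes Itih3 and Itih2 fell by 0.43, 0.43, 0.39 and 0.38 on the log2 scale (limma adjusted p between 0.0011 and 0.00406), all without overlap between groups. With the spike-in block Itih3 was the one of the 33 that passed, at -0.51 (limma adjusted p = 0.0463). Ttr, the thyroxine carrier, was 14.80 ± 0.03 in phenobarbital livers and 14.83 ± 0.01 in control livers (SD, n = 5 each), with a limma adjusted p of 0.757 near the top of the scale. Afp, the foetal counterpart of Alb, was 5.24 ± 0.07 in phenobarbital livers and 5.40 ± 0.20 in control livers (SD, n = 5 each; limma adjusted p = 0.207), and passed in 2 settings, without control replicate 3 and when its probe sets were averaged (lowest limma adjusted p 0.0411).

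Markers of the cell types in whole liver were read beside these genes. None of 10 hepatocyte markers passed limma, and their mean level was 13.60 to 13.67 in phenobarbital livers and 13.62 to 13.69 in control livers. Most of them lay near the top of the scale, where small differences are hard to read. Ahsg (-0.16) and Apoa1 (-0.06) were lower in every phenobarbital animal than in any control, as were 7.21% of all genes. Asgr1 alone of the 10 had a log2 fold change above 0, at 0.11. Prox1 is also expressed in lymphatic endothelium, which the next list does not separate from other endothelium. Of 14 endothelial and lymphatic markers, Tie1 rose and Reln, Stab2, Cdh5, Clec4g and Kdr fell, with log2 fold changes of 0.64, -0.43, -0.41, -0.33, -0.32 and -0.30 in that order (limma adjusted p between 0.00483 and 0.0365). The other 8 did not pass, among them Flt4 (0.01), Pdpn (0.05), Foxc2 (0.07), Mmrn1 (-0.18), Sox18 (-0.12), Pecam1 (0.03) and Egfl7 (-0.08). None of the 14 passed with the spike-in block, where Tie1 was at 0.20, and all 6 calls were also lost with the spike-in mean as a covariate. Those of Cdh5, Clec4g and Kdr were lost in 14, 9 and 11 of 20 settings in all. Their mean level was 7.04 to 7.32 in phenobarbital livers and 7.16 to 7.40 in control livers, and Lyve1, a lymphatic and sinusoidal marker, had a log2 fold change of 0.05 ± 0.21 (SE, adjusted p by limma = 0.902). Of 12 stellate cell markers, Lrat, Hand2, Pdgfrb and Dcn fell (log2 fold changes -0.86, -0.85, -0.67 and -0.55, limma adjusted p between 0.00243 and 0.011). Their values with the spike-in block were -0.66, -0.97, -0.57 and -0.63, and their calls were lost with the spike-in mean as a covariate. The other 8 did not pass and went both ways. Tagln, Col1a1, Acta2 and Ngfr were at 0.39, 0.17, 0.12 and 0.08, and Des, Ecm1, Col3a1 and Col1a2 at -0.01, -0.16, -0.18 and -0.25. The mean level of the 12 was 7.74 to 8.07 in phenobarbital livers and 8.06 to 8.32 in control livers.

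Of 9 cholangiocyte and progenitor markers, Prom1 and Epcam rose and 7 did not pass. Krt7, Sox9, Afp and Dlk1 had log2 fold changes of -0.17, -0.15, -0.17 and -0.07, and Krt19, Cftr and Cd24a of 0.08, 0.05 and 0.006. The mean level of the 9, which takes in the large change of Prom1, was 5.26 to 5.45 in phenobarbital livers and 4.95 to 5.20 in control livers. The median log2 fold change of the 9 was 0.006, and none but Prom1 passed with the spike-in block. Prom1, a membrane protein of progenitors and bile duct cells, was 7.84 ± 0.56 in phenobarbital livers and 5.40 ± 0.18 in control livers (SD, n = 5 each), a log2 fold change of 2.44 ± 0.21 (SE, adjusted p by limma = 1.4e-05) and 2.68 with the spike-in block (limma adjusted p = 0.00548). Epcam rose by 0.54 ± 0.13 (SE, limma adjusted p = 0.0123), a call lost when its probe sets were averaged, and on a probe set without an _s_at or _x_at suffix its value was -0.18. None of 11 Kupffer cell and leukocyte markers passed, with a mean level of 7.23 to 7.48 in phenobarbital livers and 7.19 to 7.52 in control livers. One marker of these lists, Cftr, lay below the lower quartile of every array. The part of these cell types in the differences of Prox1 and Nr5a2 was not tested.

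The genes most like Prox1 in their differences between animals of a group, by Pearson r over the 10 animals among 9094 genes, were Cox11, 0610009B22Rik, Mrps31, Spop and Ass1. Their r lay between 0.90 and 0.97. Control replicate 4, at -1.31 from its group's mean of Prox1, was the farthest of the 10 animals and carries much weight in these values. All of these genes were lowest among controls in control replicate 4, as Spop with 10.50, against 10.72, 10.73, 10.93 and 10.80 in the other controls.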

How the data were processed

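Expression was measured in whole liver of 5 phenobarbital and 5 control mice, 1 Affymetrix array each, labelled by 3' IVT per the labels' protocols. The authors deposited log2 expression values, from 2.34 to 15.13, with the scale read from this range; per the submitters' processing notes GCOS was used. The sources used here do not give the steps of summarisation and normalisation. Quartiles of the arrays lay within 0.16 of one another, and values were used as deposited. The number of arrays limits the precision.

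For 18193 genes the brightest probe set (highest mean of 10 arrays) stood for the gene, with no filter on low levels. Of 45101 probe sets, 34945 had 1 symbol in the platform annotation, 932 several, 9160 are unnamed here and 64 were controls; 34741 matched the RefSeq gene table of GRCm38.p6 by Entrez ID, and 0 symbols changed. Groups were compared with limma 3.58.1 under R 4.3.3, by two-sided moderated tests from lmFit and eBayes, with Benjamini-Hochberg adjustment over all genes. On simulated data of 18193 genes with 200 changed, 5 against 5, 98.5% of 2-fold changes and 79.7% of 1.4-fold ones were found, beside an average of 10.4 false calls. The simulated noise was independent between genes and held no difference in array quality between groups. These figures therefore do not cover calls that such a difference could bring. The spike-in sets lie on either side of the largest gap in the poly-A spike-in mean. Correlations between members used group-centred values and exact permutation within groups (14400 arrangements).

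The members, lists and settings were chosen with earlier results of these data known. Named besides the 9 members were up to 4 called genes per list with the largest change, all called markers, and 13 genes fixed by name, of which 12 are reported here. The genes most like Prox1 were taken by the same rule as the top 5 of those above the median, and those for Onecut1 and Foxa2 were chosen after seeing the data. Promoter windows came from RefSeq (GRCm38.p6). Alternatives were quantile normalisation, median centring, brighter genes alone, the mean of probe sets, probe sets without an _s_at or _x_at suffix, array weights, a variance trend with robust estimation (trend and robust variance), a replicate block, the spike-in set as a block or its mean as a covariate, and leaving out each animal.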

Additional observations from a re-analysis of the deposited data

Results flagged for a closer look

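Of 38 groups of 5 values, 2 for each of the 19 probe sets, 6 held an animal whose gap to the nearest of the others exceeded 0.71 of the group's range, where chance flags about 1 in 20. The groups share the same 10 animals and hold genes that run together, so they are not independent and the count is a description. In 4 of the 6 the animal was control replicate 4. It was high in Foxa1 (10.58, next control 9.43, gap 0.865 of the range), in Foxa2 (10.37 and 9.60, 0.802), in Foxa3 (10.02 and 9.70, 0.744) and in Onecut1 probe set 1421447_at (8 and 6.27, 0.718). Control replicate 4 is also the one control with low spike-ins, and the part of array quality in these levels was not tested. The other 2 were phenobarbital replicate 5 on Nr5a2 probe set 1449707_at, near background (4.46 and 4.26, 0.952), and control replicate 2, low on Prox1 probe set 1421336_at (5.34 and 5.66, 0.727).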

How the results depend on the processing

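With the spike-in set as a block, and then with the spike-in mean as a covariate, calls fell from 2 to 0 and 0 of the 9 genes, from 46 to 1 and 1 of 148 listed genes, from 11 to 0 and 0 of other liver transcription factors, from 4 to 0 and 0 of family relatives, from 9 to 0 and 0 of cofactors, from 8 to 0 and 1 of HNF4A targets, from 2 to 0 and 1 of FOXA and ONECUT1 targets, from 6 to 0 and 1 of C/EBP targets, from 6 to 0 and 0 of NR5A2 targets and from 8 to 1 and 0 of secreted proteins. With the spike-in mean as a covariate, the 1 call of the 148 listed genes was higher in phenobarbital livers. So was the 1 call of the HNF4A, of the FOXA and ONECUT1 and of the C/EBP targets. The 2 calls of FOXA and ONECUT1 targets without the covariate, Pck1 and Apob, were lower and were lost with it. The 1 call of these targets with it was thus a new one. The block leaves 1 control against the treated animals. In these 2 settings the log2 fold change changed sign in Hnf4a (-0.026 and -0.040), Onecut1 (-0.44 and -0.42), Foxa1 (-0.93 and -0.57), Foxa2 (-0.67 and -0.39) and Cyp7a1 (-0.50 and -0.21). It did so with the block alone in Ass1 (0.036), Nr0b2 (0.27), Hnf4g (0.02) and Cyp8b1 (-0.042), and with the covariate alone in Cebpa (-0.10). Other sign changes were those of Hnf4g (0.004), Alb (0.018) and Ttr (0.008) with median centring, of Hnf4g (0.19) and Cyp7a1 (-0.10) with the mean of probe sets, and of Epcam (-0.18) on probe sets without an _s_at or _x_at suffix. Median centring left 1 of the 9 genes, 1 FOXA and ONECUT1 target and 0 pairs of genes; the mean of probe sets gave 4 of those targets, and the spike-in block 0 pairs. The cause of these changes was not tested.

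Leaving out 1 animal at a time gave 1 to 2 calls among the 9 genes, with 1 without phenobarbital replicate 5 or control replicate 1, 2 or 3. It gave 33 to 55 among the listed genes, 7 to 13 for other liver transcription factors, 2 to 5 for family relatives, 6 to 11 for cofactors, 4 to 11 for HNF4A targets, 1 to 3 for FOXA and ONECUT1 targets, 6 to 7 for C/EBP targets, 5 to 6 for NR5A2 targets, 4 to 9 for secreted proteins and 0 to 6 for passing pairs. Log2 fold changes that crossed 0 ran from -0.17 to 0.30 for Foxa1, -0.16 to 0.19 for Foxa2, -0.10 to 0.22 for Cyp7a1, -0.0095 to 0.23 for Cyp8b1, -0.0575 to 0.0475 for Hnf4g, -0.088 to 0.25 for Lyve1 and -0.47 to 0.11 for Nr0b2. Of 39 other genes named with a call, 23 lost it only in the spike-in settings.

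Replicate numbers did not pair the animals, since same-numbered animals had correlations of -0.0238 to 0.116. With the replicate block 2 of the 9 genes passed, as without it, and FOXA and ONECUT1 targets had 1 call.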

Other observations

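The genes most like Onecut1 in their differences between animals of a group were Zcchc9, the serpin pseudogene Serpina4-ps1, Wdr45b, Inhba, which encodes the activin beta A chain, and Tuft1 (Pearson r between 0.95 and 0.99 over the 10 animals). Serpina4-ps1 read 12.24, 9.15, 10.38, 9.06 and 11.21 in phenobarbital animals and 9.74, 10.12, 9.76, 11.77 and 10.66 in controls, high in the same 3 animals as Onecut1. Most like Foxa2, after Foxa1, were Rnd3, Apobec1, Zfp809 and Plcxd2 (r between 0.91 and 0.96). Bcl6, a transcriptional repressor, ran most opposite to Foxa2 (r = -0.96), with 8.32, 10.15, 9.11, 10.15 and 9.66 in phenobarbital animals and 10.60, 10.34, 10.56, 9.77 and 10.32 in controls. These values describe 10 animals, and the genes were named after their values were seen.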
